A study of Mus musculus with 4 samples.

Results

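The Toll-like receptor genes are described here in single cells of the popliteal lymphatic vessels (PLVs) and the adjacent superficial saphenous vein (SSV) of mice. The members were 9 receptor genes, *Tlr1*, *Tlr2*, *Tlr3*, *Tlr4*, *Tlr6*, *Tlr7*, *Tlr8*, *Tlr9* and *Tlr13*, and *Cd14*, the co-receptor that hands lipopolysaccharide to the TLR4 complex. They were taken by name from the gene lists of the matrices, and all 10 were among the 30406 genes that the 4 libraries shared. Each library was made by droplet single-cell RNA-seq (10x Genomics, 3′ ends), and values were counts of unique molecular identifiers (UMIs), each of which stands for 1 captured transcript. A level is given as UMIs per 1000000 UMIs (CPM), after the UMIs of all cells of a kind in 1 library had been summed.

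Toll-like receptors are sensors of microbial products, and each reads its own class of ligand. TLR2, as a pair with TLR1 or TLR6, reads bacterial lipoproteins at the cell surface, and TLR4 with its partner MD-2 reads lipopolysaccharide there. TLR3, TLR7, TLR8, TLR9 and TLR13 sit in endosomes and read nucleic acids, double-stranded RNA for TLR3, single-stranded RNA for TLR7, unmethylated CpG DNA for TLR9 and bacterial ribosomal RNA for TLR13. Most signal through the adaptor MyD88, whereas TLR3 uses TRIF, and the end of both routes is the induction of cytokines and interferons. In tissues they are best known in macrophages, monocytes, neutrophils and dendritic cells, and fibroblasts and mural cells are known to carry some of them.

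All mice were on a C57BL/6J background, and each library pooled the vessels of both hindlimbs of 3 mice. Replicate libraries tdT1 and tdT2 came from male and female *Cspg4*-Cre;Ai9-tdTomato mice that were over 8 months old. In these mice the *Cspg4* promoter drives Cre, which switches on the tdTomato (tdT) reporter, and live tdT+ cells were sorted. The WT library came from male wild-type mice, and the TNF-Tg library from male mice that carry a human TNF transgene and develop inflammatory arthritis. Both were 9 months old by their labels, carried no reporter and were sorted as live cells with high forward or side scatter, so the sorts set which cells each library holds. The WT and TNF-Tg experiments were run on different days, so day and condition cannot be told apart. With 1 library each, the difference between them has no replicate check, no p-value is given for it, and its intervals cover counting error only. The libraries held 454 to 5488 cells and 2357031 to 68773605 UMIs, with median UMIs per cell from 4932.5 in tdT2 to 12660 in WT. The tdT1 library stood apart in quality, with 4.11% mitochondrial UMIs against 1.16 to 1.56% in the others. At most 5 cell barcodes were shared by any pair of libraries.

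Cells were assigned to gates by their marker genes, none of which was a member, and 71.3 to 84.2% of the cells of a library were assigned. Levels were computed for the 34 gate and library sums of at least 20 cells, which covered 16 gates. The plasmacytoid dendritic-like gate, with 8 cells in TNF-Tg and 1 in WT, was too small and was not read. The leukocyte gates held the genes that define them, which the gating itself ensured, since the genes named next were among its markers. *Lyve1* stood at 713.3 to 951.2 CPM in the Lyve1 macrophage-like gate, *Ccr2* at 1324 and 1381 CPM in the Ccr2 macrophage-like gate, *Ly6c2* at 696.1 to 947.8 CPM in the inflammatory monocyte-like gate and *S100a8* at 94680 to 126200 CPM in the neutrophil-like gate. The study calls its stromal cells LMCs, for lymphatic muscle, and VSMCs, for vascular smooth muscle, and the gates built on the leading genes of those clusters are called the LMC-marker gate and the VSMC-marker gate here. The study bases these names on *Cald1*, *Tpm1* and *Pdgfrb*, among other evidence, and on a *Pdgfrb* reporter that overlapped with α-smooth muscle actin protein. It also reports limited RNA of *Acta2*, *Myh11* and *Tagln*, and does not fully exclude myofibroblasts. Here too these contractile genes went against the names. A list of 8 contractile genes that includes them summed to 15.6 to 44.1 CPM in the LMC-marker gate and 7.2 to 27.8 CPM in the VSMC-marker gate. In the LMC-marker gate *Acta2* stood at 0 to 0.885 CPM, *Myh11* at 0 to 0.684 CPM and *Tagln* at 0 to 0.684 CPM, while the matrix gene *Dcn* stood at 11220 to 20010 CPM and *Pdgfra* at 412.4 to 540.0 CPM. In the VSMC-marker gate *Acta2* was at most 4.07 CPM and *Myh11* at most 1.20 CPM, with *Dcn* at 15430 to 26840 CPM.

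The genes lie on 7 chromosomes of the mouse genome (GRCm38, which is mm10), 3 of them on the X chromosome. *Tlr1* (chr5:64924679-64933563) and *Tlr6* (chr5:64952031-64960097) are neighbours on the minus strand, and *Tlr8* (chrX:167242696-167264329) and *Tlr7* (chrX:167304929-167330558) are likewise neighbours on the minus strand. *Tlr13* (chrX:106143204-106160493, plus strand) lies elsewhere on the X chromosome. *Tlr2* (chr3:83836272-83841767, minus), *Tlr3* (chr8:45395665-45411080, minus), *Tlr4* (chr4:66827584-66930284, plus), *Tlr9* (chr9:106222598-106226883, plus) and *Cd14* each stand on a chromosome of their own among the members. The annotation places an antisense gene, *Gm45542*, across part of *Tlr3*, and no gene across any other member.

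RefSeq promoters (GRCm38.p6, 250 bases before to 50 after the start site) were found for 7 of the 10 members. Those of *Tlr2*, *Tlr3* and *Tlr13* are shown because the stroma divided them, with *Tlr2* and *Tlr3* read in the stromal gates and *Tlr13* nearly confined to leukocytes, as the values below show. Capitals mark, in *Tlr2* (chr3:83841559-83841858, minus strand) and *Tlr3* (chr8:45410331-45410630, minus strand), the matches to the κB consensus, the element read by NF-κB, and in *Tlr13* (chrX:106143025-106143324, plus strand) the letters GAGGAA, the core of sites read by the myeloid factor PU.1.
Tlr2: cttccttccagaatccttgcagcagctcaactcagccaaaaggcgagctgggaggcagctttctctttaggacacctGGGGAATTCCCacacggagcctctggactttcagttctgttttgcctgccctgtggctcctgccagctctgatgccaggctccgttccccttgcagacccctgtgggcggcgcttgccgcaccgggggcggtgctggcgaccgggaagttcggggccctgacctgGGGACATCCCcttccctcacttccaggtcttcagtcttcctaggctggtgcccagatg
Tlr3: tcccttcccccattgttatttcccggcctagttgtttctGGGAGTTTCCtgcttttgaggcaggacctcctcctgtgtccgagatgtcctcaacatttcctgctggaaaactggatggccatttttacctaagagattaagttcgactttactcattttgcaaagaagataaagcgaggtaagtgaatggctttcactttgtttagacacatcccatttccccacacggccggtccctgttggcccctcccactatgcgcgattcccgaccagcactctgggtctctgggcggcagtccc
Tlr13: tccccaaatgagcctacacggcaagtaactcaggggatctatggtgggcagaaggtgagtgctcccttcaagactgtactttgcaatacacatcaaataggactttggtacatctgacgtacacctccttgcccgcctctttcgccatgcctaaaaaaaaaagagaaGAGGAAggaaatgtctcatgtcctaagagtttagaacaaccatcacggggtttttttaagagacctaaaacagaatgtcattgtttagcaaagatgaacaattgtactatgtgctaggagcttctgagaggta
Both strands of all 32851 windows of this length were searched. The κB consensus was in 4.51% of them and, among the members with a window, in *Tlr2* (a pair of overlapping matches beginning at -173 and -172 bases from the start site, and another at -8) and *Tlr3* (1 match, at -211), and in no other. GAGGAA was in 28.3% of all windows and in windows of 4 members, *Tlr1*, *Tlr8*, *Tlr9* and *Tlr13*, the last at -83 bases. The motifs were chosen with the levels known, and a match is a description of letters only.

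The stroma held 4 of these genes at 364 UMIs or more and the others at 16 UMIs or fewer. Over the 3922 stromal cells of the LMC-marker and VSMC-marker gates, *Tlr4* had 1644 UMIs, *Tlr2* 708, *Tlr3* 678 and *Cd14* 364. In the same cells *Tlr6* had 16 UMIs, *Tlr7* 14, *Tlr1* 4, *Tlr8* 4, *Tlr13* 2 and *Tlr9* 0. Over the 1864 cells of the Lyve1 and Ccr2 macrophage-like gates, every member was present, with 6753 UMIs of *Cd14*, 1970 of *Tlr7*, 1459 of *Tlr4*, 1238 of *Tlr2*, 1048 of *Tlr8*, 474 of *Tlr13*, 360 of *Tlr3*, 333 of *Tlr1*, 267 of *Tlr6* and 49 of *Tlr9*. The 572 cells of the neutrophil-like gate held *Cd14* (1111 UMIs), *Tlr2* (270), *Tlr13* (208), *Tlr4* (78), *Tlr6* (65) and *Tlr8* (42), and hardly any *Tlr7* (9), *Tlr1* (4), *Tlr3* (1) or *Tlr9* (0).

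**Figure D1:**
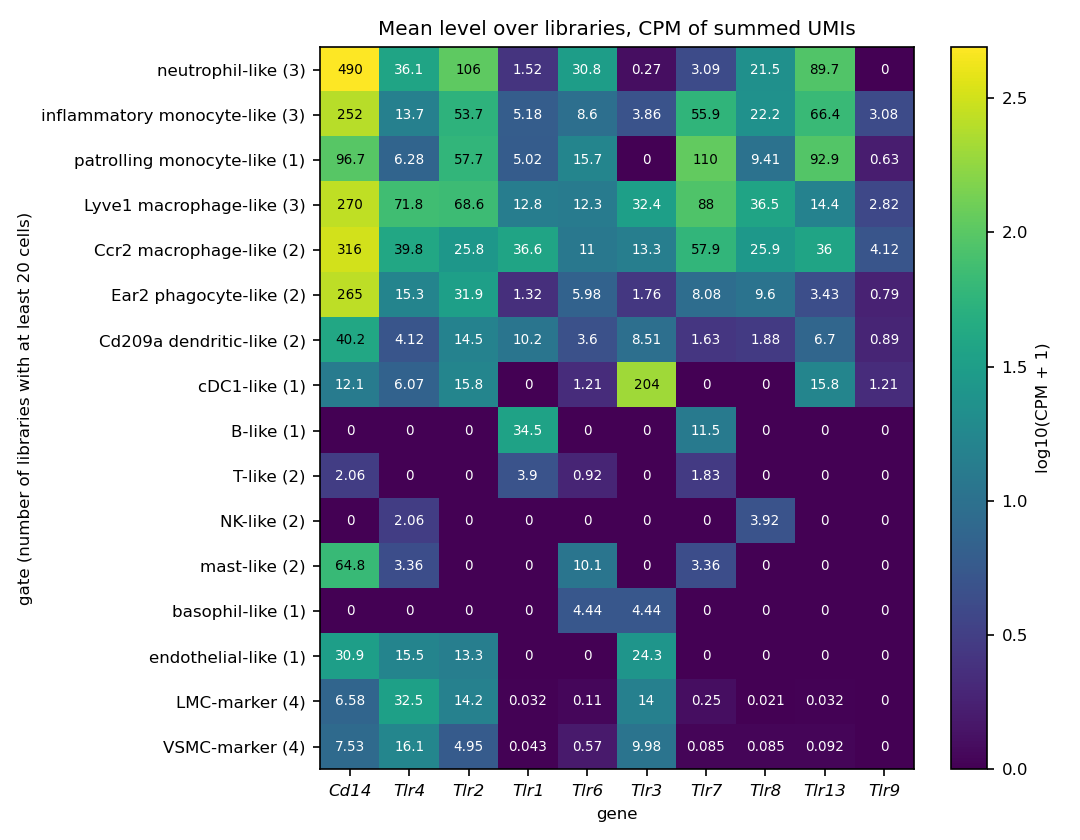
Mean level of each member (columns) in each gate (rows) over the libraries with at least 20 cells in that gate, whose number stands in brackets; colour is log10(CPM + 1) and the printed figure is the mean CPM. *Tlr4*, *Tlr2*, *Tlr3* and *Cd14* stand above 4 CPM in both stromal rows at the bottom, where the other members stand below 1 CPM, and *Tlr3* stands at 204 CPM in the cDC1-like row.

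*Cd14* (chr18:36725067-36726798, minus strand), the co-receptor for lipopolysaccharide, was a gene of the myeloid gates. In neutrophil-like cells it stood at 695.3 CPM in TNF-Tg, 501.7 in WT and 271.6 in tdT2, and in Lyve1 macrophage-like cells at 190.6, 309.3 and 311.3 CPM in the same order. In the Ccr2 macrophage-like gate *Cd14* stood at 162 CPM in TNF-Tg and 470.7 in WT, and in inflammatory monocyte-like cells at 178.1, 214.6 and 364.6 CPM in TNF-Tg, WT and tdT2. These ranges over libraries overlapped among the 4 gates. Within a library, neutrophil-like cells had the highest of these levels in TNF-Tg and WT and the lowest in tdT2, where the Ccr2 macrophage-like gate was not read. In the stroma it was low and even, at 6.26 to 6.99 CPM in the LMC-marker gate and 5.17 to 10.1 CPM in the VSMC-marker gate over 4 libraries. After each cell had been thinned to 3000 UMIs, 57.5% of 1284 Lyve1 macrophage-like cells in WT had a *Cd14* UMI (exact 95% interval 54.8 to 60.3%), against 2.26% of 1418 LMC-marker cells (1.55 to 3.17%).

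*Tlr4*, the lipopolysaccharide receptor, was highest in the Lyve1 macrophage-like gate, at 68.9 CPM in TNF-Tg, 67.3 in WT and 79.3 in tdT2. The Ccr2 macrophage-like gate (34.2 and 45.3 CPM in TNF-Tg and WT), the neutrophil-like gate (36.7, 41.3 and 30.2 in TNF-Tg, WT and tdT2) and the LMC-marker gate (26.6, 39.7, 34.1 and 29.7 in TNF-Tg, WT, tdT1 and tdT2) overlapped with each other, and none overlapped with the Lyve1 gate. Within a library, however, LMC-marker cells had the lowest of these levels, below the Ccr2 macrophage-like gate in 2 of 2 libraries and below the neutrophil-like gate in 3 of 3, where it had 78 UMIs in all. The gap to the neutrophil-like gate was small in WT (39.7 against 41.3 CPM) and in tdT2 (29.7 against 30.2 CPM, the latter from 2 UMIs). VSMC-marker cells followed at 12.6, 20.8, 16.7 and 14.5 CPM in TNF-Tg, WT, tdT1 and tdT2, below the LMC-marker gate in each of the 4 libraries. Inflammatory monocyte-like cells held less, 9.79 CPM in TNF-Tg, 20.02 in WT and 11.2 in tdT2, and the Cd209a dendritic-like gate held 3.96 and 4.29 CPM in TNF-Tg and WT. At 3000 UMIs per cell, 12.4% of LMC-marker cells in WT had a *Tlr4* UMI (10.7 to 14.2%), against 19.5% of Lyve1 macrophage-like cells (17.3 to 21.7%).

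*Tlr2*, which reads lipoproteins, was highest in neutrophil-like cells of TNF-Tg (155.5 CPM) and WT (131.3 CPM), while tdT2 had 30.2 CPM there from 2 UMIs. Lyve1 macrophage-like cells had 55.0, 59.2 and 91.6 CPM in TNF-Tg, WT and tdT2, and inflammatory monocyte-like cells 77.5, 50.04 and 33.7 CPM. Patrolling monocyte-like cells, read in TNF-Tg only, had 57.7 CPM. The Ccr2 macrophage-like gate had 17.4 and 34.3 CPM in TNF-Tg and WT, overlapping with the inflammatory monocyte-like gate and, in tdT2, with the neutrophil-like one, and lying below the Lyve1 macrophage-like gate and the patrolling monocyte-like cells. In the stroma *Tlr2* was higher in LMC-marker cells (13.7, 15.0, 21.8 and 6.26 CPM in TNF-Tg, WT, tdT1 and tdT2) than in VSMC-marker cells (4.80, 4.95, 7.63 and 2.41 CPM) within every library. The tdT2 values came from 4 UMIs and 1 UMI.

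The partners of TLR2 had different profiles. *Tlr6* was highest in neutrophil-like cells, at 24.9 CPM in TNF-Tg, 37.3 in WT and 30.2 in tdT2. The tdT2 value came from as few UMIs as that of *Tlr2* there. These values lay above the next gate, the patrolling monocyte-like cells, which were read in TNF-Tg only, at 15.7 CPM. *Tlr1* was instead highest in Ccr2 macrophage-like cells, at 46.0 CPM in TNF-Tg and 27.2 in WT, and stood at 34.5 CPM in the B-like gate of tdT1 from 3 UMIs. In Lyve1 macrophage-like cells *Tlr1* had 24.3, 7.87 and 6.10 CPM in TNF-Tg, WT and tdT2, the last from 1 UMI, and in neutrophil-like cells at most 2.93 CPM.

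Of the endosomal receptors, *Tlr3*, the sensor of double-stranded RNA, had a profile of its own. It was highest in cDC1-like cells, a dendritic type known for *Tlr3*, at 204 CPM (174.3 to 237.2 from 168 UMIs) in the 46 such cells of WT, and 32.6% of these cells had a *Tlr3* UMI after thinning (19.5 to 48.0%). These 46 cells were 0.838% of the cells of WT and gave 15.5% of its *Tlr3* UMIs. The next levels were in Lyve1 macrophage-like cells (13.9, 16.0 and 67.1 CPM in TNF-Tg, WT and tdT2, the last from 11 UMIs) and in the endothelial-like cells of tdT1 (24.3 CPM). LMC-marker cells had nearly the same *Tlr3* level in every library, 13.4, 14.1, 13 and 15.7 CPM in TNF-Tg, WT, tdT1 and tdT2, and VSMC-marker cells had 10.4, 12.97, 6.94 and 9.65 CPM. Neutrophil-like cells had 1 UMI of *Tlr3* in WT and none in TNF-Tg or tdT2, and patrolling monocyte-like cells none, where 3 UMIs would have been 1.88 CPM.

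*Tlr7*, whose product reads single-stranded RNA, was a macrophage and monocyte gene. Its neighbour *Tlr8* was read in macrophages, monocytes and neutrophil-like cells. *Tlr7* stood at 43.1, 98.9 and 122.1 CPM in Lyve1 macrophage-like cells of TNF-Tg, WT and tdT2, at 34.2 and 81.5 CPM in Ccr2 macrophage-like cells of TNF-Tg and WT, and at 110.5 CPM in patrolling monocyte-like cells of TNF-Tg. Inflammatory monocyte-like cells had 49.3, 45.6 and 72.9 CPM in TNF-Tg, WT and tdT2, and neutrophil-like cells 4.40, 4.86 and 0 CPM. *Tlr8* stood at 25.7, 53.3 and 30.5 CPM in Lyve1 macrophage-like cells and at 18.9 and 33.0 CPM in Ccr2 macrophage-like cells. Inflammatory monocyte-like cells had 14.1 to 28.0 CPM of *Tlr8* over their libraries, and patrolling monocyte-like cells of TNF-Tg 9.41 CPM. In contrast to *Tlr7*, *Tlr8* was also present in neutrophil-like cells of WT (29.99 CPM, 37 UMIs). There it had 4.40 CPM from 3 UMIs in TNF-Tg, and 30.2 CPM in tdT2 from as few UMIs as *Tlr2*. The ranges of neutrophil-like and inflammatory monocyte-like cells overlapped. Lyve1 macrophage-like cells gave 73.3% of the *Tlr7* UMIs and 68.7% of the *Tlr8* UMIs of WT while being 24.0% of its cells.

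*Tlr13*, the sensor of bacterial ribosomal RNA, marked a different set of leukocytes. It stood at 96.8, 111.9 and 60.4 CPM in neutrophil-like cells of TNF-Tg, WT and tdT2, at 92.9 CPM in patrolling monocyte-like cells of TNF-Tg and, in the inflammatory monocyte-like gate, at 54.9, 48.9 and 95.4 CPM in the libraries TNF-Tg, WT and tdT2. Ccr2 macrophage-like cells had 43.4 and 28.5 CPM in TNF-Tg and WT, and Lyve1 macrophage-like cells 19.8, 17.4 and 6.10 CPM, the last from 1 UMI. The levels of *Tlr13* in neutrophil-like, patrolling and inflammatory monocyte-like cells overlapped, and all lay above both macrophage-like gates. *Tlr9*, the DNA sensor, was scarce, with 101 UMIs over all cells of the 4 libraries. Its highest levels were 5.17 CPM in Ccr2 macrophage-like cells of WT and 6.10 and 5.61 CPM from 1 UMI each in the Lyve1 macrophage-like and inflammatory monocyte-like cells of tdT2, and none of the 572 neutrophil-like cells had a *Tlr9* UMI.

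**Figure D2:**
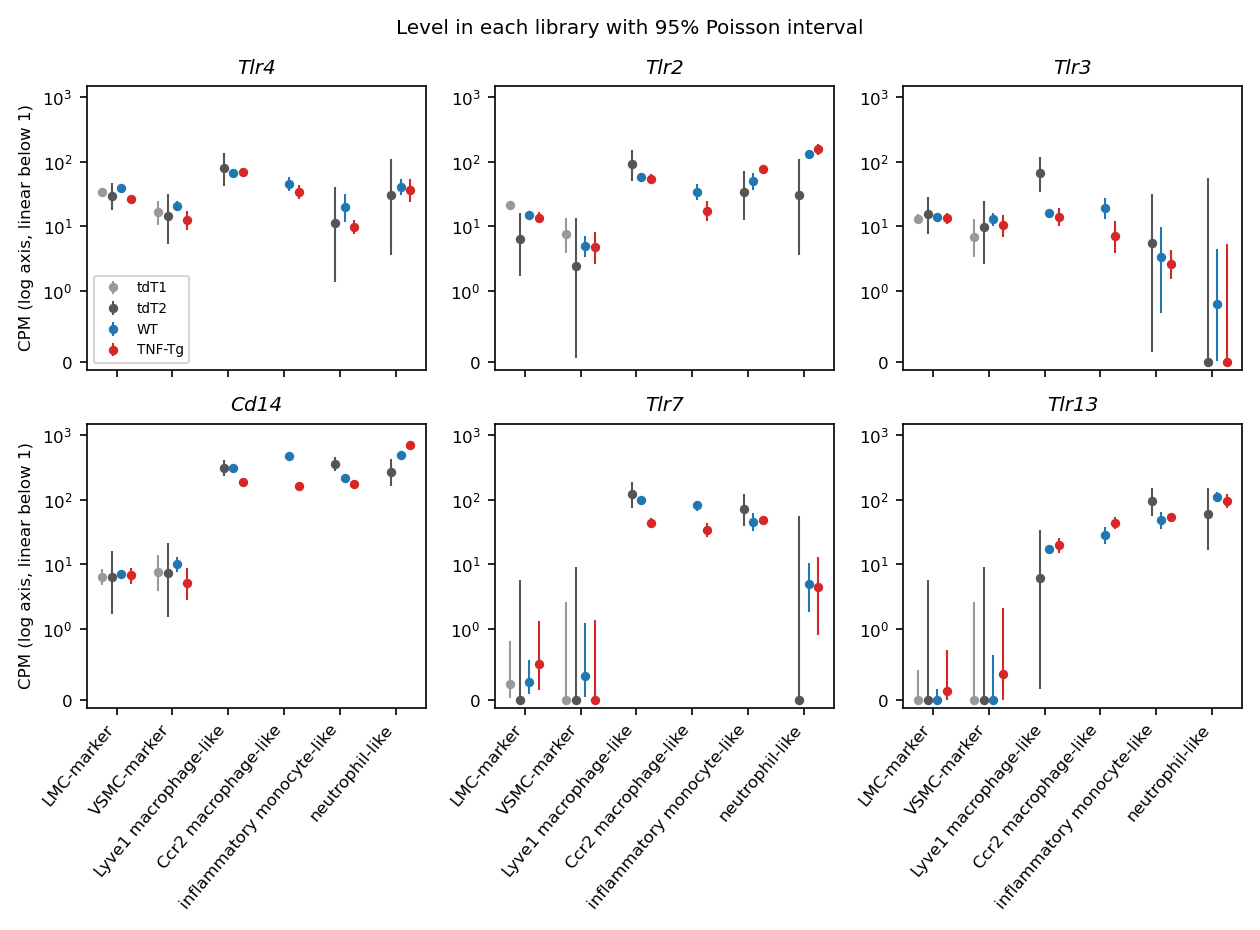
Level of 6 members in CPM (vertical axis, logarithmic above 1 and linear below) in 6 gates (horizontal axis), 1 point for each library with at least 20 cells, with its exact 95% Poisson interval. *Tlr4*, *Tlr2* and *Tlr3* keep levels above 1 CPM in the LMC-marker and VSMC-marker gates, where *Tlr7* and *Tlr13* lie below 1 CPM or at 0.

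The stromal levels of *Tlr4*, *Tlr3* and *Tlr2* were compared with those of macrophage genes in the same cells, since free RNA gives low counts of a gene in cells that do not express it. In WT, LMC-marker cells had 0.308% of the *C1qa* level of Lyve1 macrophage-like cells, 0.3502% of *C1qb*, 0.249% of *C1qc*, 0.584% of *Tyrobp* and 0.459% of *Fcer1g*. The corresponding share was 87.7% for *Tlr3*, 59.0% for *Tlr4*, 25.3% for *Tlr2* and 2.26% for *Cd14*. The macrophage genes compared here were all gate markers, and no member was. The gating itself kept these genes low in stromal cells and the *C1q* genes high in the Lyve1 gate. Their shares therefore cannot set the level that free RNA gives, and are not a like measure for the members. The members with few stromal UMIs spread widely. In LMC-marker cells of WT the share was 2.62% for *Tlr6* (7 UMIs) and 1.63% for *Tlr1* (3 UMIs), above these macrophage genes, and 0.259% for *Tlr7* (6 UMIs) and 0.160% for *Tlr8* (2 UMIs), within or below their range. In VSMC-marker cells of WT, where the same macrophage genes had 0.288 to 0.587%, the share was 7.498% for *Tlr6* (5 UMIs), above the 3.26% of *Cd14*, and 2.17% for *Tlr1*, 0.64% for *Tlr8* and 0.345% for *Tlr7*, from 1 or 2 UMIs each. In LMC-marker cells of TNF-Tg the share was 96.3% for *Tlr3*, 38.6% for *Tlr4*, 24.9% for *Tlr2* and 3.52% for *Cd14*, where the macrophage genes had 0.0572 to 0.513%. There *Tlr7* (1.17%, 4 UMIs), *Tlr6* (0.957%, 1 UMI) and *Tlr13* (0.638%, 1 UMI) also lay above the macrophage genes. The part of free RNA in the stromal UMIs of these members was not tested. Among T-like cells, which served as a leukocyte type outside the myeloid gates, no *Tlr4* UMI was found in 64 cells of TNF-Tg or 59 of WT, at median depths of 6417.5 and 8553 UMIs against 12425.5 and 16103 in LMC-marker cells. In T-like cells 3 UMIs would have been 6.88 and 5.50 CPM. Among other small gates, *Tlr4* stood at 0 to 4.12 CPM in NK-like cells and 0 to 6.72 CPM in mast-like cells. It was at 0 in the B-like and basophil-like gates.

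Levels were next compared between gates with the libraries as replicates, by edgeR's quasi-likelihood test on the 34 sums in which the library was a block and 12562 genes were tested. A gene was called at a Benjamini-Hochberg adjusted p under 0.01. The SE given with a log2 fold was derived from the test, as the absolute fold divided by the square root of its F statistic. *Tlr9* did not pass the filter on low counts in this fit, which left 9 members, and log2 folds are on the scale of this fit, which sets the most extreme genes aside when it scales libraries. On this scale neutrophil-like sums sit higher than in CPM, where the 8 neutrophil markers alone took 222067 to 288197 of each 1000000 UMIs. The Ccr2 macrophage-like gate entered as the WT and the TNF-Tg sum, which did not hold like cells. Its own 8 markers summed to 47260.9 CPM in WT and 7441.4 in TNF-Tg. What this did to the comparisons with that gate was not tested.

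Macrophages exceeded the stroma in nearly all of these genes. In the Lyve1 and Ccr2 macrophage-like gates over the stromal gates, 8 of 9 members were higher and none lower, where 22.2% of all genes tested were called higher and 25.1% lower. The median log2 fold of the members was 5.27, against -0.05 over all genes. The smallest called folds were those of *Tlr4*, at 1.04 ± 0.16 (SE, adjusted p = 7.47e-07 by edgeR), and *Tlr2*, at 2.22 ± 0.26 (adjusted p = 7.44e-09 by edgeR). *Cd14* was higher by 5.27 ± 0.30 and *Tlr6* by 4.53 ± 0.36 on the log2 scale. *Tlr1*, *Tlr7*, *Tlr8* and *Tlr13* had fitted folds between 6.95 and 7.89, which depend on the prior count of the fit, since the stroma had 2 to 14 UMIs of each. *Tlr3* was the exception, at 0.18 ± 0.27 (adjusted p = 0.608 by edgeR), with a range of -0.09 to 0.51 when WT or TNF-Tg was left out.

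Neutrophil-like cells and macrophages differed in both directions. In the neutrophil-like gate over the macrophage-like gates, 4 members were higher, where 17.2% of all genes were called higher, and 3 were lower, where 24.3% were called lower. The higher members were *Tlr13*, at 2.76 ± 0.27 (log2 fold and SE, adjusted p = 4.02e-10 by edgeR), *Tlr2* at 2.51 ± 0.28, *Tlr6* at 2.22 ± 0.33 and *Cd14* at 1.63 ± 0.31. They were 3 surface proteins and the sensor of bacterial ribosomal RNA. The lower members were *Tlr3*, at -4.09 ± 1.02 (adjusted p = 0.0011 by edgeR, with 1 UMI in all neutrophil-like cells), *Tlr7* at -3.12 ± 0.47 (adjusted p = 1.02e-06) and *Tlr1* at -2.54 ± 0.62 (adjusted p = 0.000969). *Tlr4* (0.31 ± 0.23) and *Tlr8* (-0.02 ± 0.33) were not called. The median over the members was 0.31 and over all genes -0.61. By edgeR without WT, the adjusted p of *Tlr1* was 0.0235 and that of *Tlr3* 0.0271, and without TNF-Tg that of *Tlr1* was 0.0406 and that of *Cd14* 0.0779, with a log2 fold of 0.76.

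Inflammatory monocyte-like cells were closer to the macrophages. Here *Tlr13* alone was higher, at 1.38 ± 0.28 (adjusted p = 0.000269 by edgeR), where 8.16% of all genes were called higher. The 3 lower members, where 7.32% of all genes were lower, were *Tlr4* at -1.79 ± 0.24 (adjusted p = 3.69e-07 by edgeR), *Tlr3* at -2.08 ± 0.46 (adjusted p = 0.000996) and *Tlr1* at -1.42 ± 0.37 (adjusted p = 0.00445). *Tlr2* had a log2 fold of 0.91 ± 0.28 that was not called (adjusted p = 0.0175 by edgeR), and those of *Cd14*, *Tlr6*, *Tlr7* and *Tlr8* lay between -0.41 and -0.03. The median over the members was -0.22 and over all genes -0.04. TNF-Tg held 570 of the 673 inflammatory monocyte-like cells used, and without it *Tlr1* and *Tlr3* were not called by edgeR. With all libraries kept, *Tlr13* was not called by DESeq2 (adjusted p = 0.0121).

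The macrophage-like gates differed from each other in 1 member. *Tlr1* was higher in the Ccr2 than in the Lyve1 macrophage-like gate, by 1.44 ± 0.35 on the log2 scale (adjusted p = 0.00636 by edgeR), where 2.36% of all genes were called higher and 3.42% lower. *Tlr2* (-1.23 ± 0.36, adjusted p = 0.0219 by edgeR), *Tlr4* (-0.72 ± 0.23, adjusted p = 0.0402) and *Tlr13* (1.07 ± 0.33, adjusted p = 0.0351) were not called. The median over the members was -0.24 and over all genes -0.09. The call of *Tlr1* was lost by edgeR without WT (adjusted p = 0.306), without TNF-Tg (0.0691) and without tdT2 (0.0174), and it was not made by DESeq2 (adjusted p = 0.0745).

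Within the stroma, LMC-marker cells exceeded VSMC-marker cells in the surface receptors *Tlr2* and *Tlr4*. The log2 fold was 1.5 ± 0.34 for *Tlr2* (adjusted p = 0.00167 by edgeR) and 0.99 ± 0.19 for *Tlr4* (adjusted p = 0.000213 by edgeR), with the same direction in 4 of 4 libraries for each. For *Tlr2* the direction in tdT2 rested on 4 UMIs against 1, too few to show one. Among all genes 4.35% were called higher and 3.97% lower, and the median over all genes was 0.08. That over the members, -0.15, was the fitted value of *Tlr1*, which had 4 UMIs in the stroma. *Tlr3* (0.38 ± 0.30, adjusted p = 0.505 by edgeR) and *Cd14* (-0.25 ± 0.41, adjusted p = 0.806) were not called, and the other members had at most 16 UMIs in the stroma. Both calls needed the library block, since the adjusted p by edgeR without it was 0.0575 for *Tlr2* and 0.0236 for *Tlr4*. The call of *Tlr4* was also lost without WT (adjusted p = 0.0124 by edgeR) and with clusters in place of gates (0.0184), and that of *Tlr2* without tdT1 (0.01) and by DESeq2 (0.0411).

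**Figure D3:**
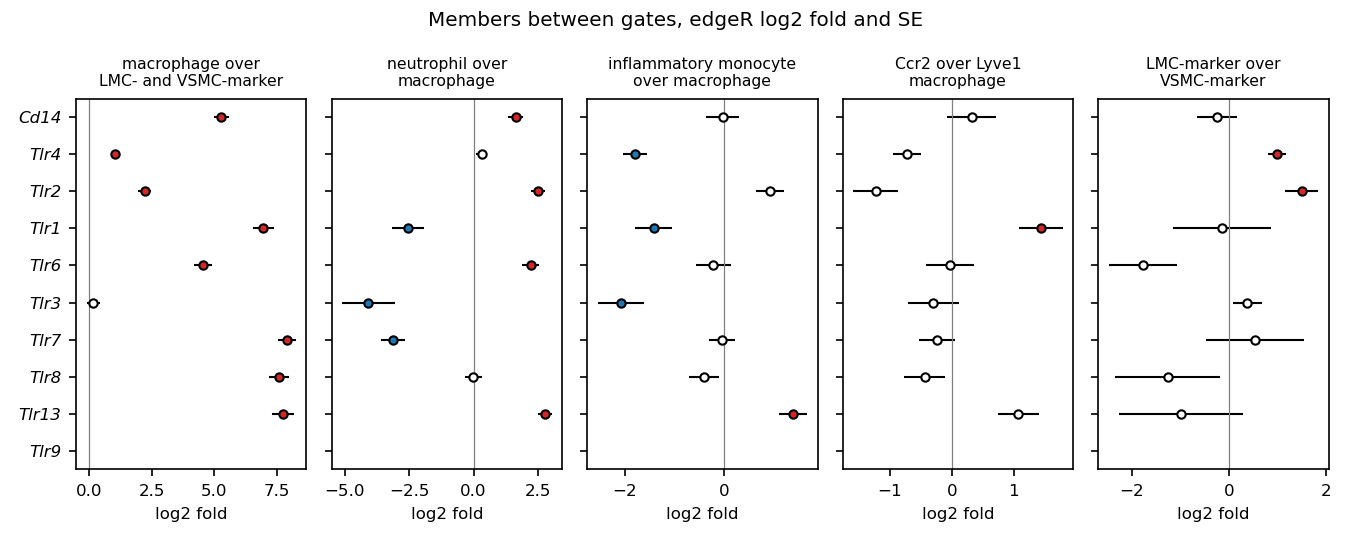
Log2 fold (horizontal axis) of each member in 5 comparisons between gates from edgeR's quasi-likelihood fit, with bars of 1 standard error; filled points passed an adjusted p of 0.01, red for higher and blue for lower, and *Tlr9* was not tested. In the first panel 8 of 9 members lie to the right of 0, and *Tlr3* lies at 0.18.

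Each of the other pathway genes has a known place around these receptors, and 29 of 31 on a list of co-receptors, chaperones, adaptors, kinases, brakes and transcription factors were tested. In macrophages over the stroma, 18 were higher and 2 lower, beside 22.2% and 25.1% of all genes. Those with the largest changes in each role were *Cd180* (8.89 ± 0.42, log2 fold and SE), a receptor relative that pairs with *Ly86*, *Slc15a3* (7.27 ± 0.30), an endosomal transporter of bacterial peptides, *Ticam2* (8.36 ± 0.40), which bridges TLR4 to TRIF, *Irf5* (5.88 ± 0.28), *Tlr11* (5.96 ± 0.70), *Sigirr* (2.47 ± 0.80) and *Irak2* (1.64 ± 0.35). *Sigirr* was barely present, at no more than 0.647 CPM in either macrophage-like gate, and its adjusted p by edgeR was 0.00999. *Unc93b1*, the chaperone that carries endosomal receptors to their site, stood at 542.5, 685.6 and 732.4 CPM in Lyve1 macrophage-like cells of TNF-Tg, WT and tdT2 and at 21.2 to 23.5 CPM in LMC-marker cells. The 2 lower genes were *Lbp*, the lipopolysaccharide-binding protein (-6.74 ± 0.32), and *Irak3*, a brake on the pathway (-1.62 ± 0.27). *Lbp* stood at 716.1, 350.1, 340.0 and 209.7 CPM in LMC-marker cells of TNF-Tg, WT, tdT1 and tdT2 and at no more than 9.02 CPM in Lyve1 macrophage-like cells. *Ly96*, which encodes MD-2, was present in the same stromal cells at 10.2 to 17.2 CPM and *Myd88* at 20.4 to 43.6 CPM.

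Neutrophil-like cells differed from macrophages in both directions in these genes too. Among the adaptors *Myd88* and *Tirap* were higher and *Ticam1* and *Ticam2*, of the TRIF route, lower. Among the kinases *Irak2* and *Irak4* were higher and *Irak1* lower. Of the 29 genes 8 were higher and 9 lower, beside 17.2% and 24.3% of all genes, and their median log2 fold was -0.71 beside -0.61. The higher genes were *Irak2* (3.25 ± 0.37), *Slc15a3* (3.03 ± 0.22), *Tirap* (2.85 ± 0.27), *Tnfaip3* (2.83 ± 0.51), *Irak3* (2.09 ± 0.34), *Myd88* (2.00 ± 0.23), *Traf3* (1.86 ± 0.38) and *Irak4* (1.21 ± 0.22), all as log2 folds with SE. The lower genes included *Ticam1* (-3.41 ± 0.96), which encodes TRIF, *Ticam2* (-3.79 ± 0.61) and *Irak1* (-1.87 ± 0.37), and the largest decrease was that of the co-receptor *Cd36* (-6.26 ± 0.62). The folds of both TRIF adaptors rest on very low counts, since neutrophil-like cells had *Ticam1* at no more than 1.47 CPM and *Ticam2* at no more than 2.93 CPM. In inflammatory monocyte-like cells over macrophages 4 were higher, led by *Sigirr* (3.47 ± 0.64) and *Irf5* (1.58 ± 0.24), and 3 lower, led by *Cd36* (-5.68 ± 0.46) and *Tlr5* (-2.47 ± 0.55), beside 8.16% and 7.32% of all genes. The fold of *Sigirr* was taken over a macrophage level of at most 0.647 CPM, and its inflammatory monocyte-like level was at most 6.06 CPM. Between the macrophage-like gates, *Slc15a3* (1.62 ± 0.27), *Irf7* (1.35 ± 0.33) and *Cd180* (1.21 ± 0.30) were higher in the Ccr2 gate and *Cd36* (-3.14 ± 0.40) lower, beside 2.36% and 3.42% of all genes. None of the 29 was called between LMC-marker and VSMC-marker cells by edgeR or by DESeq2, and 5 had an unadjusted p under 0.05 by edgeR.

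TNF-Tg was then compared with WT within each gate. A member entered this comparison with at least 20 UMIs over both libraries of the gate, and a difference of at least 2-fold either way was counted as past the fold used here. In Lyve1 macrophage-like cells (243 in TNF-Tg, 1316 in WT) all 10 members had enough UMIs. Of these cells 188 in WT (14.3%) and 1 in TNF-Tg (0.412%) lay in the cluster that held most Ccr2 macrophage-like cells. *Tlr1* was past 2-fold higher in TNF-Tg, where 4.62% of all genes were, and *Tlr7*, *Tlr8* and *Tlr9* were past 2-fold lower, where 6.55% were. The log2 ratio of TNF-Tg to WT was 1.63 for *Tlr1* (1.19 to 2.06, from 70 and 130 UMIs), -1.20 for *Tlr7* (-1.47 to -0.93, from 124 and 1633) and -1.05 for *Tlr8* (-1.41 to -0.71, from 74 and 881). For *Tlr9* the ratio of -2.52 rested on 1 UMI in TNF-Tg and 33 in WT, and its interval of -7.87 to 0.06 included 0. *Cd14* was lower by less, at -0.70 (-0.83 to -0.57), while *Tlr4* (0.03, -0.19 to 0.25) and *Tlr2* (-0.11, -0.36 to 0.14) were close to 0. The median log2 ratio was -0.16 over the members and 0.04 over all genes.

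Beside these values, the marker lists moved in the same gate. The summed level of the 8 core macrophage markers in Lyve1 macrophage-like cells was 12832.6 CPM in TNF-Tg and 19225.8 in WT, that of the Ccr2 macrophage list 6408.3 and 14366.0 CPM, and that of the neutrophil list 702.8 and 175.3 CPM, with 2 and 1 of its 8 genes at 0. Their part in the member ratios was not tested. The *Tlr1* ratio stayed between 1.17 and 2.16 and the *Tlr7* ratio between -1.24 and -0.90 over the alternatives tried.

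In Ccr2 macrophage-like cells (125 in TNF-Tg, 137 in WT), 3 of 9 members with enough UMIs were past 2-fold lower in TNF-Tg, where 8.42% of all genes were, and none was past 2-fold higher, where 7.19% were. *Cd14* stood at 470.7 CPM in WT and 162.0 in TNF-Tg, a log2 ratio of -1.54 (-1.73 to -1.35). *Tlr7* had a ratio of -1.25 (-1.70 to -0.81) and *Tlr3* one of -1.44 (-2.47 to -0.48, from 14 and 30 UMIs), which was -2.92 under the stricter gate. *Tlr2* (-0.98, -1.65 to -0.33) and *Tlr8* (-0.80, -1.45 to -0.16) were lower by less than 2-fold, and *Tlr1* (0.76, 0.22 to 1.32) and *Tlr13* (0.61, 0.07 to 1.17) were higher by less than 2-fold. The median was -0.80 over the members and 0.04 over all genes. This gate did not hold like cells in both libraries. The summed level of its own 8 markers, which include class II genes, was 47260.9 CPM in WT and 7441.4 in TNF-Tg, that of the core macrophage markers 14540.3 and 6779.4 CPM, that of the neutrophil list 515.3 and 57.7 CPM, with 0 and 3 of its 8 genes at 0, and 60 of the 125 cells of TNF-Tg lay near a limit of the gate, against 19 of 137 in WT. Their part in the member ratios was not tested.

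In inflammatory monocyte-like cells (570 in TNF-Tg, 80 in WT) *Tlr4* alone of 9 members was past 2-fold lower, at 9.79 against 20.02 CPM and a log2 ratio of -1.03 (-1.81 to -0.19), where 5.14% of all genes were past 2-fold lower and 7.16% higher. *Tlr2* was higher in TNF-Tg at 0.63 (0.19 to 1.11) and *Tlr8* lower at -0.79 (-1.48 to -0.05), while *Tlr7* (0.11) and *Tlr13* (0.16) had intervals that included 0. The neutrophil list stood at 551.8 CPM in this gate in TNF-Tg and 102.3 in WT, and the core macrophage markers at 475.9 and 871.8 CPM, and their part in the *Tlr2* and *Tlr4* ratios was not tested. In neutrophil-like cells (211 in TNF-Tg, 332 in WT) *Tlr8* alone of 6 members was past 2-fold lower, with 3 UMIs against 37 and a ratio of -2.77 (-5.11 to -1.11), where 9.41% of all genes were past 2-fold lower and 5.48% higher, and the count of members was 2 with clusters in place of gates and 3 after thinning. *Cd14* was higher in TNF-Tg at 0.47 (0.30 to 0.65), and the intervals of *Tlr2* (0.24), *Tlr4* (-0.17), *Tlr6* (-0.58) and *Tlr13* (-0.21) included 0. The core macrophage markers summed to 76.3 CPM in neutrophil-like cells of TNF-Tg and 181.6 in WT, and their part in the *Tlr8* ratio was not tested.

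In Cd209a dendritic-like cells (149 in TNF-Tg, 150 in WT) 2 of 5 members were past 2-fold higher in TNF-Tg, where 5.96% of all genes were, and none lower, where 6.77% were. These were *Tlr13* (1.79, 0.50 to 3.27, from 21 and 7 UMIs) and *Tlr3* (1.20, 0.15 to 2.34, from 24 and 12 UMIs). Both rest on few UMIs, 74 of the 149 cells of TNF-Tg lay near a limit of the gate against 23 of 150 in WT, and neither kept enough UMIs for a ratio after thinning. The mean of the per-cell levels gave *Tlr3* a ratio of 0.45. The inflammatory monocyte list summed to 1179.1 CPM in this gate in TNF-Tg and 743.1 in WT, with 0 and 1 of its 8 genes at 0, and the core macrophage markers to 52.4 and 127.1 CPM, and their part in both ratios was not tested.

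In the stroma, none of the 4 members with enough UMIs was past 2-fold in LMC-marker cells (566 in TNF-Tg, 1441 in WT), where 4.39% of all genes were past it higher in TNF-Tg and 6.23% lower, nor in VSMC-marker cells (271 and 566), where 3.09% were higher and 10.1% lower. *Tlr4* was lower in TNF-Tg in LMC-marker cells, at 26.6 against 39.7 CPM and a log2 ratio of -0.58 (-0.80 to -0.36), and the ratio lay between -0.61 and -0.51 over the alternatives. In this gate the summed level of its own 8 markers was 6715.6 CPM in TNF-Tg and 10044.6 in WT, that of the VSMC list 862.6 and 1822.3 CPM and that of the core macrophage markers 42.7 and 94.4 CPM, and their part in the *Tlr4* ratio was not tested. *Tlr2* (-0.13, -0.46 to 0.18), *Tlr3* (-0.07, -0.40 to 0.25) and *Cd14* (-0.06, -0.54 to 0.39) had intervals that included 0, and the median was -0.10 over the members and -0.04 over all genes. The tdT libraries, whose mice carried no TNF transgene, had *Tlr4* at 34.1 and 29.7 CPM in LMC-marker cells, both between the values of TNF-Tg and WT. In VSMC-marker cells *Tlr4* had a ratio of -0.73 (-1.32 to -0.17) and *Cd14* one of -0.96 (-1.92 to -0.10), beside a median of -0.53 over the members and -0.18 over all genes, and both were -0.08 under the stricter gate. The own markers of this gate summed to 7383.0 CPM in TNF-Tg and 10495.6 in WT and the core macrophage markers to 97.6 and 130.4 CPM, and their part was not tested. Of the 271 VSMC-marker cells of TNF-Tg, 116 lay near a limit of the gate.

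**Figure D4:**
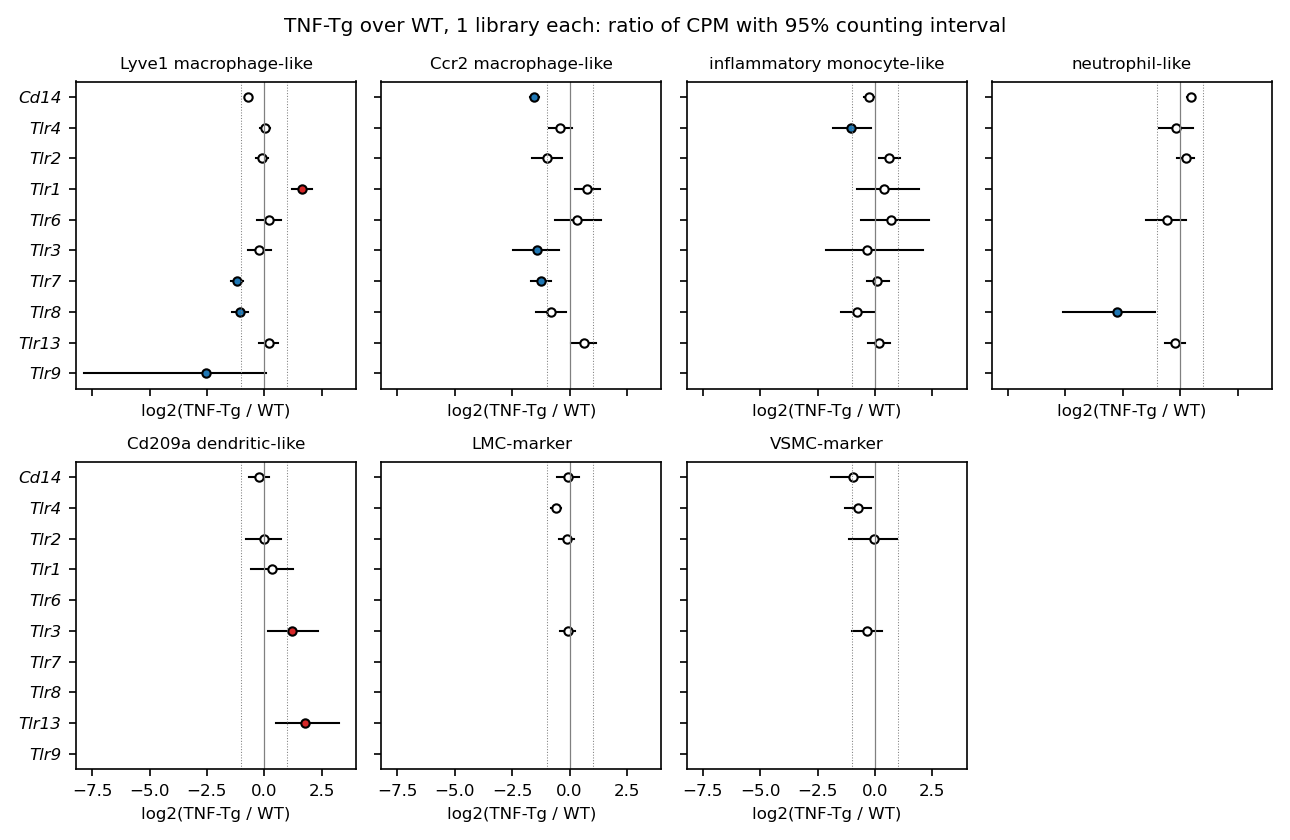
Log2 ratio of TNF-Tg to WT (horizontal axis) for each member with at least 20 UMIs over both libraries in 7 gates, with its exact 95% interval, which covers counting error only since each condition had 1 library; dotted lines mark 2-fold, and filled points lie beyond it, red for higher and blue for lower. *Tlr7* lies beyond the left line in both macrophage-like gates, *Tlr1* beyond the right line in the Lyve1 gate, and all stromal points lie between the lines.

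The pathway genes were counted between TNF-Tg and WT by the same rule, and the shares of all genes given above for each gate are the background of these counts. In LMC-marker cells *Lbp* (1.03, 0.98 to 1.08), *Myd88* (1.10, 0.89 to 1.30) and *Irak2* (1.02, -0.04 to 2.03) were past 2-fold higher in TNF-Tg among 25 with enough UMIs, all as log2 ratios. Past 2-fold lower were *Cd36* (-2.16, -3.41 to -1.13), *Ly86* (-1.85, -4.2 to -0.17), *Tlr5* (-1.16, -2.23 to -0.24) and *Sarm1* (-1.13, -3.11 to 0.39). The intervals of *Irak2* and *Sarm1* included 0. *Cd36* and *Ly86* had 8 and 3 UMIs there in TNF-Tg, and 106 and 32 in WT. In neutrophil-like cells 4 of 18 were past 2-fold higher, namely the brakes *Tnfaip3* (2.47, 1.87 to 3.11) and *Irak3* (1.46, 0.98 to 1.94), with *Traf3* (2.24, 1.28 to 3.29) and *Irak2* (1.09, 0.33 to 1.85), and none lower. *Irf7*, a transcription factor of the interferon response, was past 2-fold lower in both macrophage-like gates, at -1.48 (-1.80 to -1.18) in the Lyve1 gate and -1.56 (-1.86 to -1.28) in the Ccr2 gate. *Myd88* was past 2-fold higher in Ccr2 macrophage-like cells (1.45, 1.05 to 1.87), where 6 of 26 genes were past 2-fold lower beside 8.42% of all genes, and 2 of 28 were in the Lyve1 gate beside 6.55%, where none was higher. VSMC-marker cells had 3 of 20 past 2-fold lower, *Tnfaip3* (-1.51), *Tlr5* (-1.35) and *Irak3* (-1.09), inflammatory monocyte-like cells 1 of 27, *Ticam1* (-1.05), and Cd209a dendritic-like cells 1 of 26 higher, *Sigirr* (1.12), and 2 lower, *Tlr11* (-1.60) and *Tnfaip3* (-1.20).

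The genes whose levels followed each member most closely were found over the 34 sums, by Pearson's correlation of log2(CPM + 1) among 8386 genes. These are descriptions, since sums of 1 library share its depth and sort. *Cd14* was most like *Pla2g7* (r = 0.929), *Cd300ld* and *Clec4a2*, *Tlr2* like *Aldh3b1* (r = 0.902), *Slc12a9* and *Il13ra1*, and *Tlr4* like *Ltbr* (r = 0.894), *Ifih1* and *Tfe3*. *Tlr13* and *Tlr6* (r = 0.931 with *Pilrb1*) both had *Gm34084* among their 3, and *Tlr13* and *Tlr8* (r = 0.868 with *Clec4n*) both had *Fcgr4*, an Fc receptor gene. The others of *Tlr6* and *Tlr8* were *Ptafr* and *Oas2*. *Tlr7* was most like *Gm36161* (r = 0.899), *Rnpep* and *Trem2*, *Tlr3* like *Pdia5* (r = 0.829), *Phf11d* and *Btbd3*, and *Tlr1* like *Nipa2* (r = 0.840) and the B cell genes *Cd79b* and *Bank1*. The B-like gate entered as 1 sum, in which *Tlr1* had 3 UMIs.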

How the data were processed

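The members, marker lists and pathway list were chosen with earlier results of these data known. The deposited values were UMI counts for each gene in each cell. The authors obtained them with Cell Ranger (3.1.0 for tdT1 and 6.0.1 for the others, per the file headers) and limited them to barcodes called as cells. The processing notes of the submitters name mm10, and the annotation release is not given in the sources used here; tdT1 lists 31053 genes and the other libraries 32287. Coordinates come from GRCm38.

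Markers were scored per cell in Python 3.11.15 (numpy 2.4.6; pandas 2.3.3; scanpy 1.11.5; scipy 1.17.1) as the mean of each marker's log-normalized level, capped at its 90th percentile. A gate needed a score of at least 0.3 and a lead of 0.1 (0.4 and 0.2 in the stricter gate). Stromal cells with a leukocyte list score of at least 0.2 were set aside as mixed, as were leukocytes with such a stromal list score. These were 7, 0, 88 and 34 cells in tdT1, tdT2, WT and TNF-Tg, and the rule limits how much leukocyte RNA the stromal gates can show. Macrophages with a Lyve1 list score of at least 0.5 formed the Lyve1 gate, those under 0.35 with a Ccr2 list score of at least 0.3 the Ccr2 gate, and those between were left out. These limits were set after the marker scores had been looked at. Scrublet called 4, 1, 138 and 72 doublets in tdT1, tdT2, WT and TNF-Tg, which were kept and removed in an alternative. Seurat 5.3.0 in R 4.3.3 gave the clusters used as an alternative. Low-quality cells (over 10% mitochondrial UMIs or under 500 genes; 31 to 567 per library) were kept and removed in another.

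UMIs were summed per gate and library with at least 20 cells. Levels have exact Poisson intervals, shares exact binomial and ratios exact conditional binomial intervals, all at 95%. These cover counting error only, and the 20-UMI minimum and the 2-fold rule define calls between TNF-Tg and WT, which rest on 1 library each. Gates were compared with edgeR 4.0.16 (quasi-likelihood, TMM, low-count filter, library as a block), with DESeq2 1.42.0 as an alternative. The edgeR step was tested on simulated data. The study states that each single-cell experiment was run on its own day, so day and condition coincide for WT and TNF-Tg. With the library as a block, p-values rest on how differences between gates varied over these 4 libraries. That spread was estimated over all 34 sums of the 16 gates together, and some gates gave 1 sum only. All 10 members are named. Of the pathway genes, those past the threshold with the largest change per role could be named, and for each member with at least 100 UMIs in gated cells the 3 genes of at least 10 CPM on average with the highest correlation, of which 1 is not reported here. Figures were drawn with matplotlib 3.10.9.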

Additional observations from a re-analysis of the deposited data

Results flagged for a closer look

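*Cd14*, *Tlr2* and *Tlr3* had ratios of TNF-Tg to WT that pointed in opposite directions in different gates, with 95% counting intervals that excluded 0 on both sides. *Cd14* was higher in TNF-Tg in neutrophil-like cells (log2 ratio 0.47, 0.30 to 0.65) and lower in Ccr2 macrophage-like cells (-1.54, -1.73 to -1.35). *Tlr2* was higher in inflammatory monocyte-like cells (0.63, 0.19 to 1.11) and lower in Ccr2 macrophage-like cells (-0.98, -1.65 to -0.33). *Tlr3* was higher in Cd209a dendritic-like cells (1.20, 0.15 to 2.34) and lower in Ccr2 macrophage-like cells (-1.44, -2.47 to -0.48). In each of these the lower side was the Ccr2 macrophage-like gate, which did not hold like cells in both libraries. Its own 8 markers summed to 47260.9 CPM in WT and 7441.4 in TNF-Tg, and their part in these ratios was not tested. The higher *Tlr3* ratio rested on 24 UMIs in TNF-Tg and 12 in WT, too few for a ratio after thinning. With 1 library per condition the difference between gates was not tested.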

How the results depend on the processing

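Of 630 log2 folds recomputed under the alternatives, 579 kept their direction and their side of the threshold, 23 lost and 9 gained a call, and 19 changed sign, none of which had been called. The 8 members called in macrophages over stroma and the 7 in neutrophil-like cells over macrophages were matched in number by DESeq2 and by every change of scaling, gate, cell filter or block, except that dropping the low-count filter gave 9 in the former. Scaling by DESeq2 size factors shifted the median of all genes by -0.16 in macrophages over stroma and by -0.19 in inflammatory monocyte-like cells over macrophages. Between the macrophage-like gates, where 1 member was called, the count was 0 by DESeq2, with DESeq2 size factors, without low-quality cells, under the stricter gate, with clusters and without the library block, 2 without the low-count filter and 4 at an adjusted p under 0.05. LMC-marker over VSMC-marker cells gave 1 in place of 2 by DESeq2 and with clusters, and 0 without the library block. The folds that changed sign were those of *Tlr8* in neutrophil-like cells (0.12 without low-quality cells, 0.01 under the stricter gate, 0.22 with sums of at least 10 cells, 0.06 without the block), *Cd14* in inflammatory monocyte-like cells (0.03 with sums of at least 10 cells) and *Tlr6* between the macrophage-like gates (0.01 without doublets, 0.13 with clusters). The cause of these changes was not tested.

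Each library was left out in turn, and where this left a gate with 1 sum, that sum was taken to vary like the others. The number of members called ranged from 2 to 5 in inflammatory monocyte-like cells over macrophages, from 0 to 1 between the macrophage-like gates (0 without tdT2 or TNF-Tg) and from 1 to 2 in LMC-marker over VSMC-marker cells. The fold of *Tlr3* in macrophages over stroma ranged from -0.09 to 0.51, that of *Tlr8* in neutrophil-like cells from -0.91 to 0.35, and those of *Cd14* and *Tlr7* in inflammatory monocyte-like cells from -0.36 to 0.51 and from -0.85 to 0.36. Between the macrophage-like gates *Cd14* ranged from -0.50 to 0.56 and *Tlr3* from -1.30 to 0.09. In LMC-marker over VSMC-marker cells, where they had few UMIs, *Tlr7* ranged from -0.13 to 2.78, *Tlr8* from -1.49 to 0.03 and *Tlr13* from -1.11 to 0.03.

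For TNF-Tg over WT, 33 of 42 counts and 238 of 264 ratios held. With clusters in place of gates the count of members past 2-fold was 5 in the Ccr2 macrophage-like gate (3 in the report), 2 in neutrophil-like cells (1) and 1 in Cd209a dendritic-like cells (2). Thinning to 3000 UMIs gave 3 in neutrophil-like, 2 in Lyve1 macrophage-like (4) and 0 in Cd209a dendritic-like cells. The stricter gate and the mean per cell each gave 1 in Cd209a dendritic-like cells, and the mean per cell gave 1 in VSMC-marker cells (0). Of 1900 recomputed levels, 1780 moved by less than their error. No paired analysis was possible because the compared conditions share no replicate number in the labels and TNF-Tg and WT had 1 library each.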
